A study of Mus musculus with 24 samples.

Results

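Quiescent and cycling tumour cells were compared in D2A1, an established mouse mammary carcinoma line grown as tumours in mice. The comparison uses 8 of the 24 libraries of the series. Each of 4 D2A1 tumours gave 1 library of p27K high and 1 of p27K negative cells, matched by the tumour number in the labels, and no D2A1 library was left out. Female Balb/cJ mice received 250000 D2A1 cells in the mammary fat pad, and the tumours were taken on day 14. All cells carried mCherry and a p27K reporter fused to mVenus, and no group received a drug. The labels call the p27K high cells quiescent cancer cells and the p27K negative cells, from the same tumour, proliferative. Digested tumours were stained for CD45, a surface marker of blood cells, and with DAPI, which marks dead cells, before sorting. The sources used here do not state the gate limits or whether CD45 or mCherry served to leave cells out. D2A1 is a single line, so the spread between libraries is that between tumours of 1 line. The lines 4T07 and EMT6 were treated in the same way, with 4 tumours and 8 libraries each, and serve here only to test where D2A1 differs.

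The inhibitor p27, encoded by Cdkn1b, holds cyclin-dependent kinases in check and is degraded as cells commit to division. A fluorescent p27 fusion therefore builds up in cells that rest. In resting cells the retinoblastoma family and the DREAM complex keep genes for DNA replication and for mitosis silent. Quiescent tumour cells are known for surviving treatments aimed at dividing cells. The title of the series asks how such cells withstand T cells and shape the tissue around them.

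Levels are given as CPM, counts scaled to library size with TMM factors, in the order of tumours 1 to 4. The p27K high libraries held 20174767, 16345251, 6727594 and 17970287 counts. The p27K negative libraries held 1335433, 2110563, 1802042 and 15641189 counts, so those of tumours 1 to 3 were shallow. Only genes whose mean level would give at least 5 counts in the shallowest library were tested, which left 10786 genes. The mean was taken over both gates, so a gene could pass through the gate where it was high alone. Agt, Plin4, Csf3, Nos2, Il33, Ccl7, Adamts2, Nid1, Eln, Lox, Grem1 and Pdpn did so, all under 10 CPM on average. Among named genes above 10 CPM, so did Angptl7, Tnfrsf25, Ptgs2, Col5a2, Kif14, Neil3, Kif2c, Cep55, Knl1, Ska1, Troap, Sapcd2, Pimreg, Kntc1 and Mcm10. The changes and p-values of all these genes are given as a description. Counts over the tested members of a list do not stand for all listed. A log2 change is the p27K high over the p27K negative level within tumours, with a standard error derived from edgeR's test of the 4 pairs. That test shares its estimate of spread across genes, so the standard error is not the observed spread of the 4 pairs alone. A gene was called higher or lower at an adjusted p under 0.05 in edgeR's quasi-likelihood test with the tumour as a block. In a principal component analysis the first component, with 66.6% of the variance, set the gates apart. The second, with 10.9%, set apart the p27K high library of tumour 3 (39.5 against -19.7 to 6.58 in the other 7). The log2 changes of the 4 tumours correlated across genes with a Pearson r of 0.692 to 0.859, lowest between tumours 1 and 3. Genes are not independent replicates, so this is a description.

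The reporter gates were first checked against Cdkn1b and the proliferation marker Mki67. Mki67, which encodes Ki-67, measured 17.2, 22.3, 21.2 and 8.03 CPM in p27K high cells and 988, 888, 1132 and 938 CPM in p27K negative cells. Its log2 change was -5.93 ± 0.24 (edgeR adjusted p = 7.37e-09), and the gates did not overlap. Cdkn1b measured 409, 429.9, 476 and 445 CPM in p27K high cells and 315, 329, 357 and 283 CPM in p27K negative cells, so it was higher in all 4 tumours by a log2 change of 0.46 ± 0.11 (edgeR adjusted p = 0.00703). Without tumour 4 the Cdkn1b change was 0.39 with an edgeR adjusted p of 0.0522. Whether reads of the reporter's own p27 sequence were counted to Cdkn1b is not given in the sources used here. In bulk libraries, fewer cells of a kind and less RNA per cell cannot be told apart.

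Of the 10786 genes tested, 1860 (17.2%) were called higher in p27K high cells and 1833 (17%) lower, 34.2% together. The falls were larger than the rises. At least 4-fold changes were found for 35 genes called higher and 256 called lower. Leaving out tumour 1 gave 1139 higher and 1189 lower, tumour 2 gave 1227 and 1252, tumour 4 gave 1210 and 1309, and tumour 3, whose p27K high library stood apart, 2375 and 2513. The share of all tested genes with no overlap between the 4 values of each gate was 34.4%.

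Among called genes of at least 10 CPM on average, most of the deepest falls were in genes of division. All 64 genes of a list of G2/M and mitotic genes were tested and all 64 were lower, with a median log2 change of -4.63 against 0.01 over all genes tested. The medians by tumour were -4.64, -4.34, -4.58 and -4.89. Kif14, a motor of cytokinesis, measured 1.104, 1.66, 0.465 and 0.499 CPM in p27K high cells and 96.8, 71.01, 95.8 and 66.3 CPM in p27K negative cells and changed by -6.36 ± 0.26 (edgeR adjusted p = 8.32e-09). Aspm, which organises spindle poles, measured 4.36, 5.41, 3.88 and 2.05 CPM in p27K high cells and 281, 246, 331 and 247 CPM in p27K negative cells and changed by -6.15 ± 0.21 (edgeR adjusted p = 2.77e-09). Kif2c, a kinesin that takes microtubules apart at centromeres, changed by -6.05 ± 0.23. The p27K high levels of these 3 genes were under 6 CPM in every tumour, and the p27K negative levels were above 60 CPM. Among the kinetochore and checkpoint genes, Knl1 changed by -5.83 ± 0.15, Cenpe, a motor that carries chromosomes, by -5.48 ± 0.15, and Bub1b, a checkpoint kinase, by -5.39 ± 0.15. Bub1b measured 5.47, 6.89, 6.36 and 3.99 CPM in p27K high cells and 266, 224, 263 and 194 CPM in p27K negative cells. Kif23 and Kif20b, kinesins of the cell middle during division, changed by -4.90 ± 0.14 and -4.86 ± 0.14. Cyclin A2 (Ccna2), whose exons overlap Exosc9 on the other strand, changed by -5.64 ± 0.21, and Hmmr, a spindle assembly factor, by -5.82 ± 0.23. Of the 8 deepest falls outside both cell cycle lists, 7 were further genes of division or repair. These were the DNA glycosylase Neil3 (-6.14 ± 0.35), Cep55 of abscission (-5.83 ± 0.15), Ska1 of the kinetochore (-5.76 ± 0.24), Troap (-5.63 ± 0.30), Sapcd2 (-5.55 ± 0.29), Pimreg (-5.49 ± 0.24) and Kntc1 (-5.43 ± 0.26). The other was the collagen gene Col5a2, described with the matrix.

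Replication genes fell less than mitotic ones. Of 56 genes of G1/S and replication, 55 were lower and none was higher, with a median of -1.80 and tumour medians of -1.94, -1.76, -1.74 and -1.89. Gins4 alone was not called. No gene of either cell cycle list was higher at an unadjusted p under 0.05 or by DESeq2. Mcm10, which helps load the replication fork, measured 2.31, 3.197, 2.48 and 2.05 CPM in p27K high cells and 52.5, 45.6, 43.98 and 49.8 CPM in p27K negative cells and changed by -4.28 ± 0.19 (edgeR adjusted p = 1.81e-08). Rrm2, the regulated subunit of ribonucleotide reductase, changed by -3.93 ± 0.17, Pole, the catalytic subunit of a replicative polymerase, by -3.69 ± 0.16, Dbf4, which activates the CDC7 kinase, by -2.92 ± 0.11, and Chaf1a, a histone chaperone, by -2.46 ± 0.12. The p27K high levels of Dbf4 were 21.8, 20.1, 21.4 and 16.6 CPM against 153, 156, 163 and 131 CPM, so its transcript was still measured in p27K high cells.

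**Figure D1:**
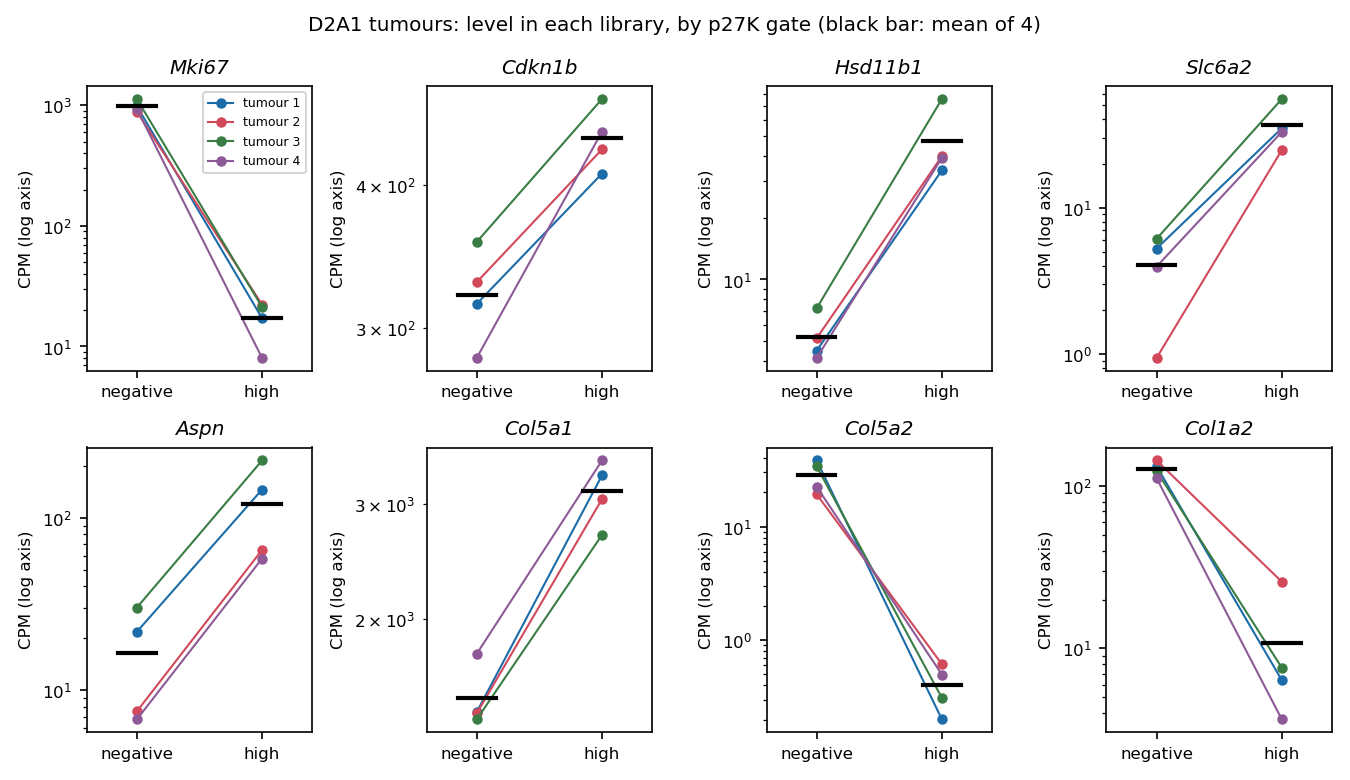
Level of 8 genes in each library in CPM on a log axis, with the p27K negative and p27K high library of a tumour joined by a line and the black bar at the mean of 4. Mki67, Col5a2 and Col1a2 fell in every tumour, Cdkn1b, Hsd11b1, Slc6a2, Aspn and Col5a1 rose in every tumour, and the axes differ between panels.

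The promoters of mitotic genes carry known elements of cell cycle control, and 3 are printed here because this list fell in all its members. The cell cycle homology region was searched as TTTGAA or TTCGAA on both strands in the 250 bases before the start site, in RefSeq sequence of GRCm38.p6. It was found in 20 of 52 promoters of the mitotic list that could be matched (38.5%), in 7 of 46 of the G1/S list (15.2%) and in 12% of 8370 promoters of tested genes. The letters CCAAT, on either strand, were found in 73.1%, 60.9% and 37.2% of the same promoters. A match is a description and not a binding site. In the sequences below capitals mark the cell cycle homology region. In Kif15, a spindle kinesin, 1 match stands as its reverse complement, 13 bases before the start site. The matches end 182 bases before the start site in Bub1b and 108 bases before it in Ect2, an activator of cytokinesis.
Bub1b, chr2:118597961-118598210, plus strand: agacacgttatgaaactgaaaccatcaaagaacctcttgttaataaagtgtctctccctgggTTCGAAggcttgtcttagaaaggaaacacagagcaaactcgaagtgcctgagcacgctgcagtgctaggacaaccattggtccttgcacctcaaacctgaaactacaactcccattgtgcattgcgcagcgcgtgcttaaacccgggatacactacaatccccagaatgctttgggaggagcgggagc
Ect2, chr3:27153879-27154128, minus strand: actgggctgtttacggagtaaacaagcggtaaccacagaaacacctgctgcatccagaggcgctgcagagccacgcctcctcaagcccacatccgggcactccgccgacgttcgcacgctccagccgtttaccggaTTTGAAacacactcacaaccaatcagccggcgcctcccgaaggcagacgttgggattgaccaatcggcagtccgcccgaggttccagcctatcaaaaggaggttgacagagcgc
Kif15, chr9:122950831-122951080, plus strand: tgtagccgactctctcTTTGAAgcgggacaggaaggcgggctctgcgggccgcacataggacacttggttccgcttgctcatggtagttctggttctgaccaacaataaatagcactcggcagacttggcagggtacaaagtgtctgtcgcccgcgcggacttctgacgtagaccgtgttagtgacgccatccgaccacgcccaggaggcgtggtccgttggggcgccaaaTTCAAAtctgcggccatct

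Inhibitors and regulators of quiescence moved in both directions. Of 38 listed genes, 35 were tested, 19 were higher and 4 lower, with a median of 0.45. Gas1, a growth arrest gene, measured 459, 455, 435 and 538 CPM in p27K high cells and 162, 185, 169 and 214 CPM in p27K negative cells and changed by 1.37 ± 0.11 (edgeR adjusted p = 2.26e-06). Klf9, a transcription factor induced by hormones, measured 116, 121, 151 and 131 CPM in p27K high cells and 46.5, 49.8, 41.2 and 46.4 CPM in p27K negative cells and changed by 1.49 ± 0.13 (edgeR adjusted p = 6.13e-06). In both genes every p27K high value lay above every p27K negative value. The 3 other members with the smallest p fell. They encode parts of the DREAM complex: Lin54, its DNA-binding subunit (-2.48 ± 0.21), Lin9, a core subunit (-2.09 ± 0.15), and Rbl1, the pocket protein p107 (-1.68 ± 0.15). Lin54 measured 7.52, 7.93, 4.498 and 10.1 CPM in p27K high cells and 45.8, 41.9, 46.2 and 39.04 CPM in p27K negative cells. The other lower gene was Cdkn2d (-1.37 ± 0.16), an inhibitor of CDK4 and CDK6. The list holds both activators and parts of a repressor that themselves follow the cell cycle, so its median is not a direction of its name.

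A list of cyclin D and growth cyclins, which also holds the kinases Cdk4 and Cdk6, did not share the depth of these falls. All 9 members were tested, 2 were lower and 0 higher in edgeR's quasi-likelihood test (2 at an unadjusted p under 0.05, Ccni and Ccnl1, and 0 by DESeq2). The 2 lower are 22.2% of the members, near the 17% called lower over all genes tested. Cyclin D1 (Ccnd1) measured 681, 701, 478 and 896 CPM in p27K high cells and 787, 806, 833 and 1073 CPM in p27K negative cells and changed by -0.37 ± 0.13 (edgeR adjusted p = 0.044). Its kinase Cdk4 measured 215, 209.5, 271 and 182 CPM in p27K high cells and 254, 301, 291 and 298 CPM in p27K negative cells and changed by -0.40 ± 0.12 (edgeR adjusted p = 0.028). Both sets of values overlapped between gates. Cdk4 was no longer called without tumour 1, 2 or 4 (edgeR adjusted p = 0.0769, 0.144 and 0.162), and Ccnd1 was not either (edgeR adjusted p = 0.109, 0.0973 and 0.0876). Ccnd1 also lost its call without the block (edgeR adjusted p = 0.146), and its change without tumour 3 was -0.23. The other members had log2 changes of 0.30 for Ccni, 0.25 for Ccnl1, -0.24 for Cdk6, 0.19 for Ccnt2, 0.16 for Ccnd3, -0.11 for Ccng1 and -0.15 for Ccnd2, none of which was called. Ccni (edgeR adjusted p = 0.00212), Ccnl1 (0.0118) and Ccnt2 (0.019) were called higher without tumour 3.

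**Figure D2:**
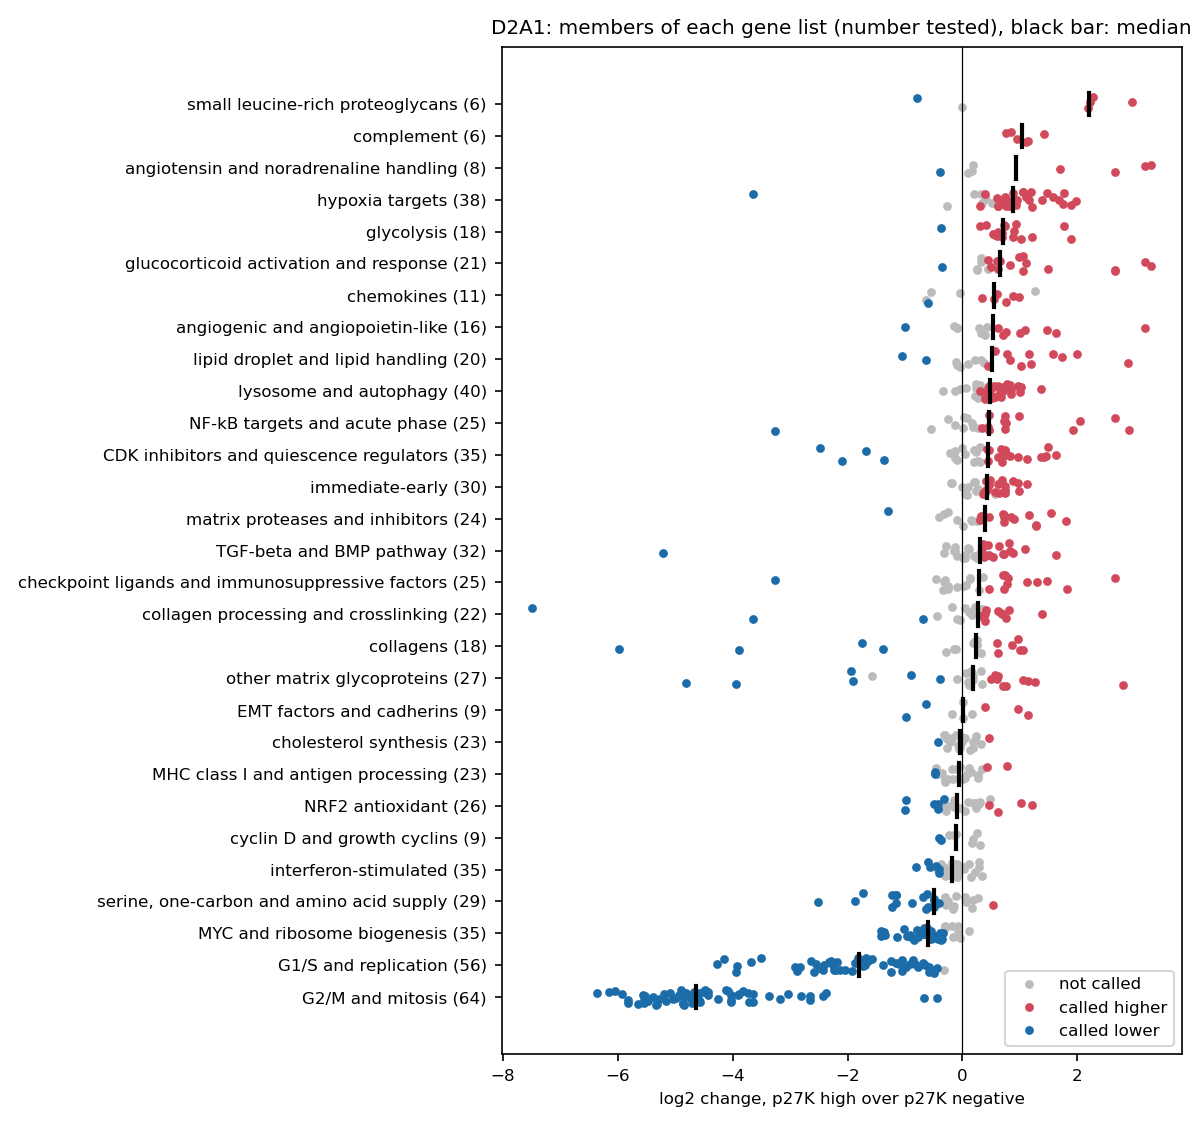
Log2 change (p27K high over p27K negative) of every tested member of each gene list, with the number tested in brackets, red for called higher, blue for called lower, grey for not called and a black bar at the median. The mitotic list lies lowest, with a median of -4.63, and the small leucine-rich proteoglycans highest, with 2.21, while the matrix lists hold both deep falls and rises.

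The largest rises included genes that handle hormones and secreted proteins of the matrix. Hsd11b1 (chr1:193221634-193264075, minus strand, GRCm38) encodes the enzyme that makes active glucocorticoid from its inert form. It measured 34.01, 39.8, 75.7 and 39.2 CPM in p27K high cells and 4.502, 5.17, 7.24 and 4.15 CPM in p27K negative cells and changed by 3.18 ± 0.17 (edgeR adjusted p = 9.18e-08). Every p27K high library lay above every p27K negative one. Of 27 genes listed for glucocorticoid activation and response, 21 were tested, 15 were higher and 1 lower, with a median of 0.66. Cebpd, a transcription factor induced by glucocorticoids and by cytokines, measured 88.9, 106, 159 and 128 CPM in p27K high cells and 21.8, 15.05, 18.9 and 20.5 CPM in p27K negative cells and changed by 2.66 ± 0.16 (edgeR adjusted p = 2.49e-07), with exons that overlap Spidr on the other strand. Dusp1, a phosphatase of MAP kinases, was already abundant, at 696, 744, 782 and 802 CPM in p27K negative cells, and reached 1376, 1436, 1546 and 1662 CPM in p27K high cells (0.99 ± 0.10). Its exons overlap Ergic1 on the other strand. The 1 lower gene was Fkbp5 (-0.37 ± 0.10), a call that was lost without tumour 1, 2 or 4.

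Genes of angiotensin and noradrenaline handling were few after the filter. Of 16 listed, 8 were tested, 4 were higher and 1 lower, with a median of 0.94. With at least 20 expected counts, 7 were tested, 3 were higher and the median was 0.20. Agt, the precursor of angiotensin, measured 12.5, 9.77, 19.7 and 7.76 CPM in p27K high cells and 0.75, 2.35, 2.78 and 0.447 CPM in p27K negative cells and changed by 3.28 ± 0.36, resting on 1, 5, 5 and 7 counts in p27K negative cells. Ace, which cleaves angiotensin I, measured 31.9, 34.7, 35.5 and 43.8 CPM in p27K high cells and 9.004, 3.29, 8.91 and 5.36 CPM in p27K negative cells and changed by 2.66 ± 0.24 (edgeR adjusted p = 8.5e-06). Anpep, a surface aminopeptidase, changed by 1.69 ± 0.15. Slc6a2 (chr8:92960079-93001667, plus strand, GRCm38), the noradrenaline transporter, measured 34.9, 24.8, 55.2 and 32.9 CPM in p27K high cells and 5.25, 0.941, 6.12 and 3.95 CPM in p27K negative cells and changed by 3.18 ± 0.22 (edgeR adjusted p = 7.95e-07). The gates did not overlap in any of these 4 genes, and Agt stayed at a low level throughout. Maoa, which breaks down noradrenaline, was lower by a log2 change of -0.39 ± 0.13 (edgeR adjusted p = 0.0401). It was not called by DESeq2 (adjusted p = 0.0546) or without tumour 1 or 2 (edgeR adjusted p = 0.145 and 0.186). Lnpep (0.18) was not called. Without tumour 3, Lnpep changed by 0.47 (edgeR adjusted p = 0.00356).

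Of the 12 largest rises among genes above 10 CPM on average, 3 belonged neither to the hormone genes nor to the matrix or inflammatory genes. Angptl7, a secreted angiopoietin-like protein, measured 11.6, 11.4, 12.1 and 40.9 CPM in p27K high cells and 1.501, 2.35, 3.897 and 2.81 CPM in p27K negative cells and changed by 3.18 ± 0.36 (edgeR adjusted p = 5.14e-05). Tumour 4 held the highest value, and without it the change was 2.15. Plxdc1, a surface protein known from tumour vessels, changed by 2.53 ± 0.20, and Tnfrsf25, the death receptor DR3, by 2.36 ± 0.23. Plxdc1 measured 22.5, 38.6, 40.02 and 31.1 CPM in p27K high cells and 3.75, 8.94, 8.35 and 4.15 CPM in p27K negative cells, and Tnfrsf25 measured 16.9, 12.8, 24.04 and 14.4 CPM in p27K high cells and 3.75, 2.35, 3.34 and 3.13 CPM in p27K negative cells. The gates did not overlap in either gene.

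Most targets of the hypoxia response rose. Of 44 listed genes, 38 were tested, 31 were higher and 1 lower, with a median of 0.88 and tumour medians of 0.67, 0.77, 0.94 and 1.00. Ndrg1, a differentiation and stress gene, measured 937, 1246, 1079 and 894 CPM in p27K high cells and 302, 372, 297 and 266 CPM in p27K negative cells and changed by 1.75 ± 0.11 (edgeR adjusted p = 2.89e-07). Bnip3, which marks mitochondria for removal, measured 318, 369, 265 and 386 CPM in p27K high cells and 95.3, 125, 78.5 and 124 CPM in p27K negative cells and changed by 1.67 ± 0.11 (edgeR adjusted p = 4.58e-07). The angiogenic factor Vegfa measured 1015, 1045, 974 and 1011 CPM in p27K high cells and 363, 398, 372 and 335 CPM in p27K negative cells and changed by 1.46 ± 0.11 (edgeR adjusted p = 1.31e-06). In all 3 the gates were apart, although p27K high levels of Ndrg1 and Bnip3 varied between tumours. The 1 member that fell was Lox, a crosslinker of collagen. Of 18 glycolytic genes tested out of 20, 17 were higher and 1 lower, with a median of 0.70. The lower one was the lactate transporter Slc16a1 (-0.37 ± 0.10), and this call was lost without tumour 1, 2 or 4. Slc2a1, the glucose transporter GLUT1, measured 820.2, 1139, 1061 and 729 CPM in p27K high cells and 284, 316, 236 and 251 CPM in p27K negative cells and changed by 1.77 ± 0.13 (edgeR adjusted p = 1.56e-06). Among the enzymes, Eno2 changed by 1.89 ± 0.12, Hk2 by 1.22 ± 0.14, Gpi1 by 0.93 ± 0.11 and Pdk1, which keeps pyruvate out of mitochondria, by 0.89 ± 0.12. The lists share members, such as Slc2a1 and Eno2, so their counts are not independent.

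The core of the hypoxia response element, ACGTG on either strand, was found in 12 of 30 matched promoters of the hypoxia list (40%), in 38.9% of 18 glycolytic ones and in 22.7% of the 8370 promoters of tested genes. Bnip3, Slc2a1 and P4ha2, a collagen prolyl hydroxylase, are printed because they rose in every tumour and carry the letters in this window. Capitals mark ACGTG, and in Bnip3 also its overlapping match on the other strand, which together give a palindrome.
Bnip3, chr7:138909507-138909756, minus strand: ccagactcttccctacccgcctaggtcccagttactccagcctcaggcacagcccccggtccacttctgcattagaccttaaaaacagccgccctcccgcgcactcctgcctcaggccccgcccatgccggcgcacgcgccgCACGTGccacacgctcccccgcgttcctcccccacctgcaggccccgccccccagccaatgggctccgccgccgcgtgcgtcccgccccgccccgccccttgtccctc
Slc2a1, chr4:119108495-119108744, plus strand: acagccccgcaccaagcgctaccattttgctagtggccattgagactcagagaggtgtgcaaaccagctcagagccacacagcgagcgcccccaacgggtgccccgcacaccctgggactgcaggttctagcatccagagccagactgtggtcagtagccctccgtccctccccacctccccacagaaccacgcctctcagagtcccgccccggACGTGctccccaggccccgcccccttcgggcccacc
P4ha2, chr11:54100674-54100923, plus strand: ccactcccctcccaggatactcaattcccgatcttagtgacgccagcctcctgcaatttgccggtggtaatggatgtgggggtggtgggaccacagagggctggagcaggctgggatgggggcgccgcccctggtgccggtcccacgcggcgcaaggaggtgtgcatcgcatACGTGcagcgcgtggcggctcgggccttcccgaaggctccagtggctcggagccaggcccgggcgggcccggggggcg

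Genes of the extracellular matrix moved in both directions. Over all genes tested, 17.2% were called higher and 17% lower. Over 4 matrix lists together, 73 genes were tested, 30 were higher, 14 lower and 29 not called, the number lower being near that last share. Among them 5 rose by at least 4-fold (Aspn, Mgp, Prelp, Ogn and Omd) and 6 fell by at least 4-fold (Adamts2, Col5a2, Nid1, Eln, Col1a2 and Lox). The fibrillar collagens held the split within 1 protein: collagen V is built from chains of Col5a1 and Col5a2. Col5a1 measured 3322, 3054, 2689.8 and 3502 CPM in p27K high cells and 1436, 1429.6, 1399 and 1765 CPM in p27K negative cells and changed by 1.06 ± 0.11 (edgeR adjusted p = 2.09e-05). Col5a2 (chr1:45374321-45503282, minus strand, GRCm38) measured 0.201, 0.615, 0.31 and 0.499 CPM in p27K high cells and 38.3, 19.3, 33.96 and 22.5 CPM in p27K negative cells and changed by -5.97 ± 0.36 (edgeR adjusted p = 2.18e-07). These Col5a2 levels rest on 4, 10, 2 and 9 counts in p27K high cells and 51, 41, 61 and 352 in p27K negative cells. Col1a2 (chr6:4504814-4541544, plus strand) measured 6.37, 25.7, 7.6004 and 3.66 CPM in p27K high cells and 132, 143, 124 and 112 CPM in p27K negative cells and changed by -3.88 ± 0.33 (edgeR adjusted p = 4.21e-06), with the highest p27K high value in tumour 2. Its partner in collagen I, Col1a1, fell less, by 1.39 on the log2 scale (SE 0.17, edgeR adjusted p = 8.33e-05), from 197, 124, 226 and 165 to 83.4, 66.8, 89.8 and 40.1 CPM. Col3a1 changed by -1.74 ± 0.22. Collagens VI and XVI went the other way, with changes of 1.01 ± 0.10 for Col6a1 and 0.96 ± 0.10 for Col16a1. The Col6a1 values, 453, 311, 466 and 225 CPM against 236, 157, 224 and 109 CPM, overlapped between tumours but were higher in p27K high cells of each tumour. Of 18 collagen genes tested out of 23, 6 were higher and 4, the chains named above, lower, with a median of 0.23. Without tumour 3 the number higher was 10.

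Enzymes that process collagen also moved in both directions. Of 27 listed, 22 were tested, 10 were higher and 3 lower, with a median of 0.27. The number lower was near the 17% called lower over all genes tested. The number higher was 4 without tumour 1 or 2 and 6 without tumour 4. The prolyl hydroxylases P4ha2 and P4ha1 rose by 1.38 ± 0.11 and 0.81 ± 0.11. P4ha2 measured 199.9, 225, 224 and 231 CPM in p27K high cells and 81.8, 87.9, 85.7 and 83.3 CPM in p27K negative cells. Loxl3, a lysyl oxidase whose exons overlap Htra2 on the other strand, rose by 0.69 ± 0.11. Lox measured 0.401, 2.398, 0.31 and 0.277 CPM in p27K high cells and 8.25, 5.17, 12.8 and 11.8 CPM in p27K negative cells and changed by -3.64 ± 0.61, and by -4.96 without tumour 2 and -3.02 without tumour 4. Its exons overlap another annotated gene on the other strand. Adamts2 (chr11:50602084-50807573, plus strand, GRCm38), which removes the amino end of procollagen, had 0, 2, 0 and 0 counts in p27K high cells and 17, 5, 26 and 110 in p27K negative cells. The pooled levels differ 229-fold, with a 95% interval of 62.4 to 1908 that covers counting error only, and the gene passed the filter through the p27K negative gate alone. The other lower gene was Pcolce2 (-0.68 ± 0.13).

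The small leucine-rich proteoglycans, which coat collagen fibrils, had the highest median of all lists, 2.21. Of 12 listed, 6 were tested, 4 were higher and 1 lower. Aspn, asporin, measured 146, 64.98, 215 and 57.9 CPM in p27K high cells and 21.8, 7.52, 30.1 and 6.76 CPM in p27K negative cells and changed by 2.95 ± 0.14 (edgeR adjusted p = 2.38e-08). Ogn measured 121, 59.4, 139 and 94.1 CPM in p27K high cells and 24.01, 29.2, 32.3 and 10.5 CPM in p27K negative cells and changed by 2.23 ± 0.27 (edgeR adjusted p = 9.58e-05). In both the gates were apart, although p27K high levels varied between tumours. Omd rose by 2.19 ± 0.23 and Prelp by 2.27 ± 0.29. Bgn, biglycan, was lower by a log2 change of -0.80 ± 0.18 (edgeR adjusted p = 0.00654), and was not called without tumour 1 or 4 (edgeR adjusted p = 0.0555 and 0.0541). Dcn, decorin, measured 42.6, 38.98, 70.4 and 27.9 CPM in p27K high cells and 48.02, 58.8, 60.1 and 20.3 CPM in p27K negative cells and did not pass the test (edgeR adjusted p = 0.995). The exons of Aspn overlap those of Cenpp on the other strand, and whether counting used strand is not given in the sources used here.

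Other glycoproteins of the matrix divided too, with 10 higher and 6 lower of 27 tested out of 40, and a median of 0.18. Here also the number lower was near the 17% over all genes tested. Mgp, an inhibitor of calcification, measured 21.7, 24.9, 49.5 and 19.5 CPM in p27K high cells and 6.75, 5.17, 3.34 and 2.42 CPM in p27K negative cells and changed by 2.79 ± 0.27 (edgeR adjusted p = 1.64e-05). Ecm1 rose by 1.27 ± 0.12 from a high level, 277, 268, 278 and 292 CPM. Nid1, a linker of basement membranes, measured 0.552, 0.307, 0 and 0.332 CPM in p27K high cells and 12.01, 9.88, 12.2 and 6.89 CPM in p27K negative cells and changed by -4.81 ± 0.43. Elastin (Eln) changed by -3.95 ± 0.40 and periostin (Postn) by -1.94 ± 0.14. Nid1 and Eln were under 1 CPM in every p27K high library. Fbn1, of elastic microfibrils, changed by -1.91 ± 0.22.

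**Figure D3:**
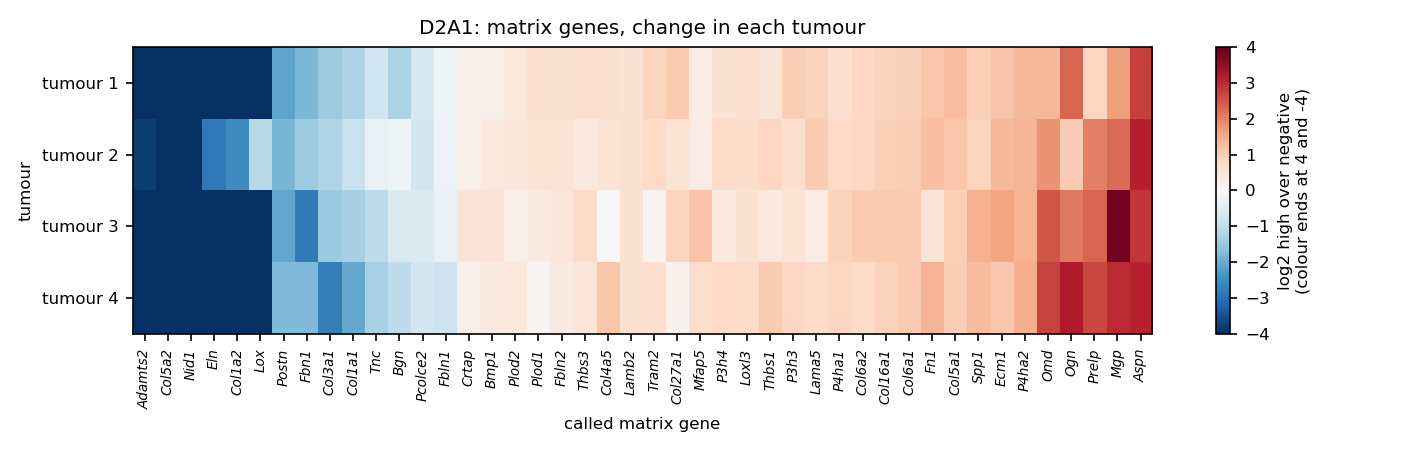
Log2 change in each tumour (rows) of the 44 called genes of the 4 matrix lists (columns, ordered by change), with blue for lower and red for higher in p27K high cells and the colours ending at 4 and -4. The falls at the left and the rises at the right were present in all 4 tumours, and the fall of Lox was weakest in tumour 2.

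Markers of other cells in the libraries are given beside the matrix because some of them moved with the gates. Endothelial markers, 9 genes with 0 tested because of low counts, summed to 0.861 to 6.48 CPM in the p27K high libraries and 10.6 to 30.8 CPM in the p27K negative ones. Their defining genes Pecam1 and Cdh5 measured 0.702, 0.246, 0.465 and 1.83 CPM in p27K high cells and 9.004, 3.29, 2.78 and 3.57 CPM in p27K negative cells, and 0.803, 0.0615, 0.465 and 1.27 CPM in p27K high cells and 7.504, 4.23, 3.897 and 3.64 CPM in p27K negative cells. The endothelial sums did not overlap, but they rest on few reads. In p27K negative cells Pecam1 had 12, 7, 5 and 56 counts and Cdh5 had 10, 9, 7 and 57. Vwf, on the same list, measured 0.201, 0.123, 0 and 1.94 CPM in p27K high cells and 0, 0, 1.67 and 0.255 CPM in p27K negative cells. It was thus higher in p27K high cells of tumours 1, 2 and 4. Thy1, a marker of fibroblasts, measured 0, 0.184, 0.62 and 0.166 CPM in p27K high cells and 7.504, 5.17, 10.02 and 4.27 CPM in p27K negative cells. Pdpn, also on the fibroblast list, measured 0.251, 2.03, 0 and 0 CPM in p27K high cells and 2.25, 22.1, 5.01 and 1.53 CPM in p27K negative cells. The fibroblast list as a whole went the other way, with 896 to 1104 CPM in the p27K high libraries and 679 to 883 CPM in the p27K negative ones, mostly through the receptors Pdgfra and Pdgfrb. Of its 12 genes 7 were tested, 3 (Pdgfra, Pdgfrb and Pi16) were higher and 3, namely Col1a2, Col1a1 and Pdpn, lower. Fap measured 0, 0, 0.155 and 0.0554 CPM in p27K high cells and 0, 0.47, 0 and 0.0638 CPM in p27K negative cells. Pericyte and smooth muscle markers summed to 9.63 to 16.3 CPM in the p27K high libraries and 13.5 to 25.1 CPM in the p27K negative ones. The part of such cells in the falls of Col5a2, Col1a2, Nid1, Eln, Adamts2 and Lox was not tested.

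Apart from Cd14, blood cell markers were low in both gates. Ptprc, which encodes CD45, measured 0.0502, 0, 0.155 and 0.665 CPM in p27K high cells and 0, 1.41, 2.78 and 0.957 CPM in p27K negative cells. Macrophage and monocyte markers summed to 142 to 182 CPM in the p27K high libraries and 76.3 to 134 CPM in the p27K negative ones, nearly all of it Cd14, which measured 131, 139, 164 and 114 CPM in p27K high cells and 60.8, 73.8, 45.7 and 67.04 CPM in p27K negative cells. The sum over the other 14 genes of that list went the other way in each tumour, at 10.7, 13.3, 18.3 and 29.97 CPM in p27K high cells and 18.8, 60.7, 30.6 and 32.6 CPM in p27K negative cells. Single members did not all do so. Cd68 measured 5.17, 7.07, 5.89 and 5.54 CPM in p27K high cells and 3.001, 23.98, 5.57 and 4.98 CPM in p27K negative cells. Lyz2 measured 1.61, 2.09, 4.96 and 10.4 CPM in p27K high cells and 5.25, 13.6, 6.12 and 9.82 CPM in p27K negative cells and was not called (edgeR adjusted p = 0.121), although DESeq2 called it lower (adjusted p = 0.0435). Without tumour 4 its change was -1.66 (edgeR adjusted p = 0.0294), and without tumour 2 it was -0.33. Neutrophil markers summed to 5.02 to 8.84 CPM in the p27K high libraries and 2.11 to 4.45 CPM in the p27K negative ones, and T and NK markers to 0.123 to 1.396 CPM in the p27K high libraries and 0.557 to 0.941 CPM in the p27K negative ones. The mesenchymal list, led by Vim and Fn1, summed to 20571 to 25868 CPM in the p27K high libraries and 13009 to 14321 CPM in the p27K negative ones. Most of that gap came from Fn1. It measured 18185, 17505, 12355 and 19885 CPM in p27K high cells and 8510, 7528, 8573 and 7730 CPM in p27K negative cells. Vim was closer between gates, at 5390, 4906, 7090 and 4938 CPM against 4792, 4872, 5082 and 4951 CPM. Mammary epithelial markers summed to 95.01 to 205 CPM in the p27K high libraries and 64.3 to 681 CPM in the p27K negative ones, with Krt5 and Elf5 at or near 0. Mesenchymal markers outweighed the epithelial ones in all 8 libraries of this mammary carcinoma.

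Mesenchymal transcription factors were uneven. Of 21 genes on the list of epithelial to mesenchymal transition, 9 were tested, 3 were higher and 2 lower, with a median of 0.01, or 0.18 with at least 20 expected counts. The number lower was near the 17% called lower over all genes tested, of which 17.2% were called higher. Twist1 measured 428, 417, 682 and 461 CPM in p27K high cells and 213, 199, 242 and 235 CPM in p27K negative cells and changed by 1.13 ± 0.12 (edgeR adjusted p = 3.42e-05). Snai1 changed by 0.97 ± 0.13 (edgeR adjusted p = 0.000201). Prrx1 changed by 0.39 ± 0.13 (edgeR adjusted p = 0.0438), a call lost without the block (edgeR adjusted p = 0.0503), on scaling by total count (0.0645) and without tumour 1 (0.168), 2 (0.157) or 4 (0.231). Cdh11, a mesenchymal cadherin, changed by -0.64 ± 0.15 (edgeR adjusted p = 0.00656). Acta2, smooth muscle actin, changed by -0.99 ± 0.22 (edgeR adjusted p = 0.00486), and was not called without tumour 4 (edgeR adjusted p = 0.0667). Vim, Snai2, Zeb1 and Zeb2 did not pass the test, with log2 changes of 0.16, -0.19, 0.01 and 0.0042.

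On a list of matrix proteases and their inhibitors, 24 of 29 genes were tested, 14 were higher, 1 lower and 9 not called, with a median of 0.39, or 0.60 with at least 20 expected counts. Mmp3, stromelysin, measured 401, 509.5, 649 and 399 CPM in p27K high cells and 129, 158, 125 and 134 CPM in p27K negative cells and changed by 1.81 ± 0.15 (edgeR adjusted p = 2.85e-06). Mmp2, a gelatinase, measured 97.7, 69.8, 132 and 47.6 CPM in p27K high cells and 36.8, 20.2, 41.8 and 18.5 CPM in p27K negative cells and changed by 1.54 ± 0.13 (edgeR adjusted p = 4.12e-06). Both were higher in p27K high cells of each tumour, with no overlap. Adamts4, which cleaves aggrecan and has exons that overlap another gene on the other strand, changed by 1.27 ± 0.12, and Mmp11, which overlaps Chchd10 on the other strand, by 1.15 ± 0.14. Serpine2, a protease inhibitor, rose with them, by 1.29 ± 0.13. The 1 lower gene was Adam12 (-1.29 ± 0.17).

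In the TGF-beta and BMP pathway, 15 of 32 tested genes out of 38 were higher and 1 lower, with a median of 0.31. Without tumour 1, 2 or 4 the number called higher was 7, 8 and 9, and without tumour 3 it was 21. Among the ligands, Tgfb3 changed by 0.73 ± 0.11 (edgeR adjusted p = 0.000424). Ltbp2 and Ltbp3, which store latent TGF-beta in the matrix, changed by 0.88 ± 0.11 and 0.81 ± 0.11, Ltbp3 with exons that overlap another gene. The co-receptor Tgfbr3 measured 166, 178, 135 and 217 CPM in p27K high cells and 57.03, 61.6, 44.5 and 62.1 CPM in p27K negative cells and changed by 1.63 ± 0.12 (edgeR adjusted p = 9.75e-07). Grem1, a secreted BMP inhibitor, was the 1 that fell, with 4, 2, 0 and 4 counts in p27K high cells and 16, 10, 17 and 48 in p27K negative cells, and a change of -5.22 ± 0.55. Its levels, 0.201, 0.123, 0 and 0.222 CPM against 12.01, 4.703, 9.47 and 3.06 CPM, did not overlap.

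Among inflammatory genes the prostaglandin synthase Ptgs2 was the 1 called lower. Of 36 NF-kB targets and acute phase genes, 25 were tested, 14 were higher, 1 lower and 10 not called, with a median of 0.45. Without tumour 1 the number called higher was 9. Lcn2, an iron-binding acute phase protein, measured 49.3, 90.1, 80.3 and 98.9 CPM in p27K high cells and 18.01, 14.1, 6.12 and 14.2 CPM in p27K negative cells and changed by 2.66 ± 0.24 (edgeR adjusted p = 7.59e-06). Saa3 changed by 1.93 ± 0.27, the cytokine Il33 by 2.05 ± 0.30 and Cp, ceruloplasmin, by 0.99 ± 0.12. Cp was abundant in both gates, at 1899, 1883, 1600.0 and 2609 CPM against 993, 1022, 919.8 and 1043 CPM, and overlaps Hps3 on the other strand. Csf3, the growth factor of neutrophils, measured 8.93, 9.34, 9.93 and 3.601 CPM in p27K high cells and 1.501, 0, 2.78 and 0.447 CPM in p27K negative cells and changed by 2.89 ± 0.45, and passed the filter through the p27K high gate alone. Ptgs2, which encodes COX-2, measured 4.51, 4.61, 0.155 and 0.166 CPM in p27K high cells and 60.8, 33.4, 1.67 and 1.21 CPM in p27K negative cells. It was lower in each tumour by a log2 change of -3.26 ± 0.29 (edgeR adjusted p = 7.86e-06), but tumours 3 and 4 held little of it in either gate, and the call was lost without the block (edgeR adjusted p = 0.057). Ptges, the next enzyme toward prostaglandin E2, went up by 1.30 ± 0.18 (edgeR adjusted p = 0.000253).

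Of 19 complement genes, 6 passed the filter and all 6 were higher, with a median of 1.03. With filterByExpr alone 12 were tested, 6 were higher and 2 lower, with a median of 0.38. Serping1, an inhibitor of the first component, was among the lower ones (-2.59, edgeR adjusted p = 0.00217). C1s1, a protease of the classical pathway, measured 236, 301, 205 and 411 CPM in p27K high cells and 92.3, 175, 94.7 and 177 CPM in p27K negative cells and changed by 1.11 ± 0.12 (edgeR adjusted p = 4.38e-05). C1ra changed by 0.84 ± 0.14, Masp1 by 1.14 ± 0.18 and clusterin (Clu) by 1.42 ± 0.22. C3, the central component, measured 77.7, 123, 59.3 and 164 CPM in p27K high cells and 51.8, 103, 28.95 and 74.4 CPM in p27K negative cells, which overlapped between gates, and changed by 0.75 ± 0.16 (edgeR adjusted p = 0.00372). That call was lost without the block (edgeR adjusted p = 0.155). C1rl changed by 0.95 ± 0.22, and was not called after thinning to equal depth (edgeR adjusted p = 0.114) or without tumour 4 (edgeR adjusted p = 0.0625). The filter left the other listed members untested, so the 6 do not stand for all 19.

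Of 30 chemokine genes, 11 were tested, 6 were higher and 1 lower, with a median of 0.55. Without tumour 1 or 4 the number higher was 3 and 3. With filterByExpr alone 15 were tested, 7 were higher and 2 lower, with a median of 0.16, the added lower gene being Cxcl14 (-5.05, edgeR adjusted p = 4.1e-06). Ccl2, which draws monocytes, measured 28.7, 39.8, 33.3 and 26.6 CPM in p27K high cells and 16.5, 21.2, 15.6 and 19.8 CPM in p27K negative cells and changed by 0.76 ± 0.16 (edgeR adjusted p = 0.00402). Ccl7 changed by 0.99 ± 0.28 (edgeR adjusted p = 0.0171), and was not called after thinning (edgeR adjusted p = 0.0701) or without tumour 1 (0.0568), 2 (0.0517) or 4 (0.0862). Cx3cl1 changed by 0.60 ± 0.11 (edgeR adjusted p = 0.00127), a call lost without the block (edgeR adjusted p = 0.0761). Ackr3, which removes CXCL12, changed by 0.89 ± 0.12 (edgeR adjusted p = 0.000197). Of the marker sums given above, that of macrophages without Cd14 was lower in p27K high cells of each tumour. The neutrophil sum was higher through S100a8, at 4.87, 6.82, 8.69 and 6.26 CPM in p27K high cells and 3.001, 2.82, 3.897 and 1.403 CPM in p27K negative cells, and its other genes summed to at most 1.41 CPM in any library. The part of such cells in these changes was not tested.

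Among checkpoint ligands and immunosuppressive factors, 25 of 42 genes were tested, 11 were higher and 1 lower, with a median of 0.29. Vsir, which encodes the checkpoint protein VISTA, measured 74.1, 77.2, 76.8 and 91.5 CPM in p27K high cells and 27.01, 19.3, 18.4 and 26.3 CPM in p27K negative cells and changed by 1.83 ± 0.14 (edgeR adjusted p = 1.84e-06). Nt5e, the CD73 enzyme that makes adenosine, measured 923, 1023, 770.0 and 835 CPM in p27K high cells and 431, 419, 425 and 345 CPM in p27K negative cells and changed by 1.13 ± 0.12 (edgeR adjusted p = 2.28e-05). The gates did not overlap for either. Nos2, the inducible nitric oxide synthase, measured 4.92, 7.93, 2.33 and 11.3 CPM in p27K high cells and 0.75, 2.35, 0.557 and 1.34 CPM in p27K negative cells and changed by 2.66 ± 0.37. Without tumour 4 its change was 2.00. Cd274, the ligand PD-L1, measured 21.7, 35.3, 8.69 and 35.7 CPM in p27K high cells and 11.3, 35.7, 9.47 and 43.2 CPM in p27K negative cells. It did not pass the test (0.03 ± 0.19, edgeR adjusted p = 0.91), and it was lowest in tumour 3 in both gates.

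Interferon-stimulated genes differed more between tumours than between gates. Of 38 listed, 35 were tested, 0 were higher and 6 lower in edgeR's quasi-likelihood test, close to the 17% of all genes called lower, and the median was -0.17. DESeq2 also called 0 higher and 6 lower, and 0 were higher at an unadjusted p under 0.05. The tumour medians were 0.20, -0.27, 0.03 and -0.60, so tumours 1 and 3 lay on the other side of 0 from tumours 2 and 4. The mean log2(CPM + 0.5) over the list was 5.89, 5.94, 4.90 and 5.92 in p27K high cells and 5.67, 6.20, 4.76 and 6.48 in p27K negative cells. Tumour 3 was lowest in both gates. Gbp3, a guanylate-binding protein, measured 126, 172, 58.9 and 149 CPM in p27K high cells and 134, 273, 75.2 and 314 CPM in p27K negative cells. Iigp1, an interferon-induced GTPase, measured 56.2, 132, 9.93 and 154 CPM in p27K high cells and 51.03, 158, 21.2 and 221 CPM in p27K negative cells. In both genes the gates overlapped and tumour 3 was lowest. The number called lower was 6 without tumour 1, 0 without tumour 2, 13 without tumour 3 and 0 without tumour 4, and 0 without the block. Named members had changes of -0.46 ± 0.12 for Gbp7 (edgeR adjusted p = 0.0137), -0.57 ± 0.15 for Gbp3 (edgeR adjusted p = 0.0149), -0.60 ± 0.18 for Cxcl10 (edgeR adjusted p = 0.0232) and -0.80 ± 0.25 for Oasl1 (edgeR adjusted p = 0.0275). Without tumour 4 none of these 4 was called, with edgeR adjusted p = 0.111, 0.104, 0.25 and 0.202 in this order, nor without tumour 2, with 0.0656, 0.0698, 0.0967 and 0.129. Some genes of the Gbp family are close copies of each other, and reads may be split between such copies.

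MHC class I and antigen processing genes were likewise split by tumour. All 23 with counts were tested, of 24 listed, and 2 were higher and 2 lower. That is 17.4% called, against 34.2% of all genes tested. The median was -0.06, and the tumour medians were 0.10, -0.17, 0.57 and -0.46. H2-T23, a nonclassical class I gene, measured 134, 183, 139.9 and 155 CPM in p27K high cells and 75.04, 121, 47.3 and 126 CPM in p27K negative cells and changed by 0.78 ± 0.17 (edgeR adjusted p = 0.00553). H2-D1 measured 2635, 3122, 2727 and 3479 CPM in p27K high cells and 1859, 2358, 1521 and 3583 CPM in p27K negative cells and changed by 0.43 ± 0.14 (edgeR adjusted p = 0.0354). It was not called without the block (edgeR adjusted p = 0.237) or without tumour 1 (0.17) or 2 (0.126), and its change without tumour 3 was 0.28. H2 genes are close copies of each other, so their reads may be shared. The chaperone Canx changed by -0.47 ± 0.10 (edgeR adjusted p = 0.00494), and Erap1, which trims peptides, by -0.48 ± 0.15 (edgeR adjusted p = 0.0305). Erap1 was not called without the block (edgeR adjusted p = 0.186), after thinning (0.141) or without tumour 4 (0.183). Calr, a further chaperone, changed by -0.36 ± 0.13 (edgeR adjusted p = 0.054). Without tumour 3, 2 genes of the list were higher and 11 lower, with a median of -0.30, and Calr was among the lower ones (edgeR adjusted p = 0.000272). Nlrc5, which activates class I genes, measured 180.5, 228, 74.5 and 261 CPM in p27K high cells and 143, 221, 86.3 and 325 CPM in p27K negative cells and was not called (edgeR adjusted p = 0.823). Of 10 MHC class II genes only H2-DMa could be tested, with 5.02, 5.66, 4.96 and 7.81 CPM in p27K high cells and 5.25, 5.64, 2.23 and 3.89 CPM in p27K negative cells and no call (edgeR adjusted p = 0.163).

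**Figure D4:**
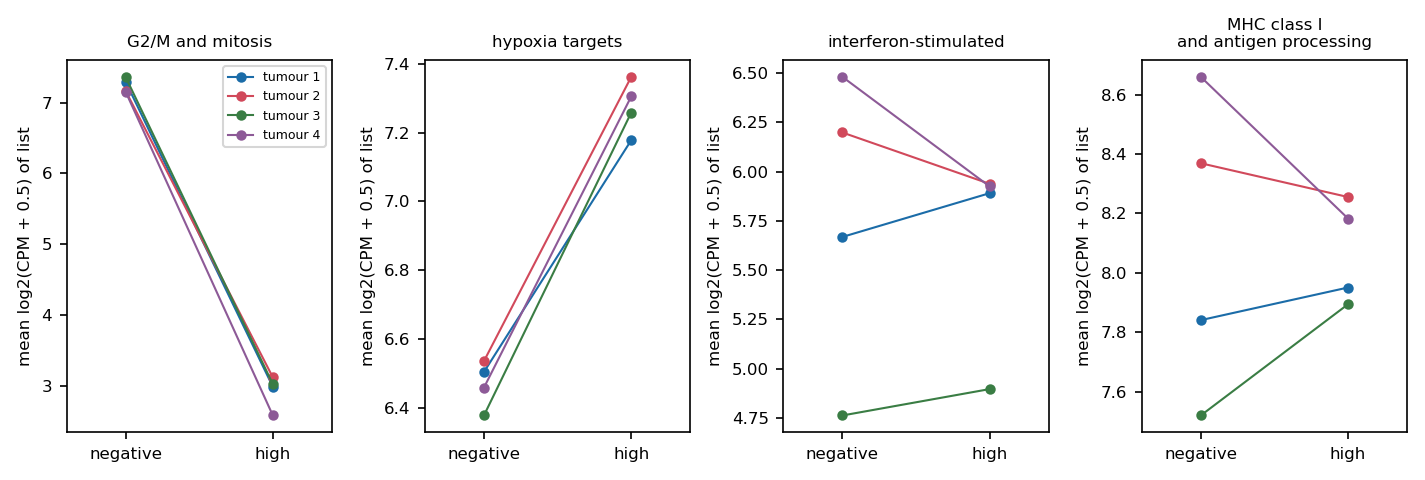
Mean log2(CPM + 0.5) over the tested members of 4 gene lists in each library, with both gates of a tumour joined by a line. The mitotic list falls and the hypoxia list rises in all 4 tumours, while the interferon and MHC class I lists rise in tumours 1 and 3 and fall in tumours 2 and 4, with tumour 3 lowest in the interferon list in both gates.

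Most listed genes of growth fell. Of 35 genes of MYC and ribosome biogenesis, all tested, 27 were lower and 0 higher in edgeR's quasi-likelihood test (0 also at an unadjusted p under 0.05 and by DESeq2), with a median of -0.59. Dkc1, a part of the pseudouridine machinery whose exons overlap Mpp1 on the other strand, changed by -1.43 ± 0.11 (edgeR adjusted p = 2.52e-06). Tcof1 and Lyar of the nucleolus changed by -1.37 ± 0.12 and -1.41 ± 0.14, and Nop58 and Ddx21, which process ribosomal RNA, by -1.14 ± 0.12 and -0.97 ± 0.11. Nop58 measured 131, 138, 194 and 104 CPM in p27K high cells and 314, 321, 331 and 259 CPM in p27K negative cells. Myc itself measured 75.7, 67.7, 78.8 and 52.9 CPM in p27K high cells and 93.8, 67.2, 73.5 and 73.2 CPM in p27K negative cells and was not called (edgeR adjusted p = 0.308). Without tumour 3 its change was -0.29 (edgeR adjusted p = 0.0407). In serine, one-carbon and amino acid supply, 17 of 29 tested genes out of 32 were lower and 1 higher, with a median of -0.49. The serine synthesis enzymes named by the rule were Phgdh (-1.23 ± 0.14) and Psat1 (-1.73 ± 0.11). Psat1 measured 64.5, 64.9, 54.8 and 41.1 CPM in p27K high cells and 215, 209, 163 and 153 CPM in p27K negative cells. Shmt1 and Shmt2, which pass the carbon of serine to folate, changed by -1.88 ± 0.16 and -1.16 ± 0.11, and both overlap genes on the other strand. The amino acid transporter Slc7a5 changed by -1.16 ± 0.13, and the 1 higher gene was the transporter Slc1a4 (0.54 ± 0.12).

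Most lysosomal genes tested rose, by small amounts. Of 42 listed, 40 were tested, 28 were higher and 0 lower in edgeR's quasi-likelihood test (0 also at an unadjusted p under 0.05 and by DESeq2), with a median of 0.48. Without tumour 4 the number higher was 16, and without tumour 3 it was 32. Neu1, a sialidase, changed by 1.36 ± 0.18 (edgeR adjusted p = 0.00015). Ctsa, Ctsb, Gaa and Psap, which break down proteins, glycogen and lipids, changed by 0.96 ± 0.12, 0.85 ± 0.12, 0.84 ± 0.11 and 0.80 ± 0.10. Psap measured 1626, 1759, 1822 and 1776 CPM in p27K high cells and 957, 1058, 959 and 1046 CPM in p27K negative cells. Of 32 immediate-early genes, which answer growth signals and also cell handling, 30 were tested, 18 were higher, 12 not called and 0 lower by the same 3 counts, with a median of 0.42, and the number higher without tumour 1 or 2 was 12 and 12. Klf2 changed by 1.13 ± 0.16, Ier3 by 0.97 ± 0.13, Maff by 0.88 ± 0.12 and Klf4 by 0.74 ± 0.10. Ier3 measured 366, 359, 487 and 359.6 CPM in p27K high cells and 163, 221, 200.4 and 213 CPM in p27K negative cells.

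In lipid handling, 11 of 20 tested genes out of 34 were higher and 2 lower, with a median of 0.51. Enpp2, autotaxin, which makes lysophosphatidic acid, measured 266, 320.2, 269 and 238 CPM in p27K high cells and 78.8, 118, 93.5 and 53.01 CPM in p27K negative cells and changed by 1.73 ± 0.14 (edgeR adjusted p = 2.92e-06). Lpar1, a receptor for that lipid, changed by 0.77 ± 0.11 (edgeR adjusted p = 0.000317). Abca1, which exports cholesterol, measured 73.3, 68.8, 46.4 and 106 CPM in p27K high cells and 28.5, 24.9, 22.8 and 24.9 CPM in p27K negative cells and changed by 1.57 ± 0.17 (edgeR adjusted p = 4.52e-05). Plin4 of lipid droplets, whose exons overlap Hdgfl2, rose from 0, 2.35, 0.557 and 2.42 to 10.99, 13.3, 10.4 and 14.8 CPM, and Apod changed by 1.99 ± 0.26. The 2 lower genes were Fabp5 (-1.05 ± 0.17), a fatty acid carrier, and Apoe (-0.63 ± 0.23), of which only 1 was called without tumour 1, 2 or 4. Angiogenic and angiopoietin-like genes were higher in 8 of 16 tested out of 23 and lower in 1, with a median of 0.52. Besides Vegfa and Angptl7, Pgf, a relative of Vegfa, changed by 1.63 ± 0.15 (edgeR adjusted p = 1.07e-05), and the semaphorins Sema3f and Sema3b by 1.09 ± 0.12 and 1.01 ± 0.17. The 1 lower gene was Sema3a (-0.99 ± 0.29), a call lost without tumour 1 or 2.

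The D2A1 gate change was then set against the mean of those in 4T07 and EMT6, in 1 fit of 24 libraries with 12 tumours as blocks. Each line was sequenced in its own run, so line and run cannot be told apart, but each change was taken within a tumour and run. The 4T07 table held 24982 entries, against 49316 for D2A1 and for EMT6. The effect of this on the differences was not tested. Of 10444 genes tested, 916 (8.77%) had a higher and 711 (6.81%) a lower change in D2A1, so 56.3% of the calls were higher. Scaling by total count gave 1100 higher and 506 lower, or 68.5% higher. Without tumour 1 or 2 of D2A1 there were 1072 and 1080 calls. Against EMT6 alone 318 genes were called and against 4T07 alone 3178, with 602 called without the block. Calls differ in number between these contrasts, which does not rank the lines.

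The falls of Col5a2 and Col1a2 were deeper in D2A1. Col5a2 changed by -5.96 in D2A1, -1.29 in 4T07 and -1.48 in EMT6, a difference of -4.57 ± 0.50 (edgeR adjusted p = 6.39e-05). Col1a2 changed by -3.84 in D2A1, -1.22 in 4T07 and 0.33 in EMT6, a difference of -3.39 ± 0.50 (edgeR adjusted p = 0.000629), and -3.98 without tumour 2. Ptgs2 changed by -3.26 in D2A1, 1.64 in 4T07 and 0.52 in EMT6, with a difference of -4.33 ± 0.26 (edgeR adjusted p = 4.74e-08). Dcn changed by 0.04 in D2A1, 2.15 in 4T07 and 2.05 in EMT6, with a difference of -2.06 ± 0.36 (edgeR adjusted p = 0.0018). Igfbp7, a secreted binder of growth factors that overlaps Polr2b, changed by -1.65 in D2A1, 0.75 in 4T07 and 0.59 in EMT6 (-2.31 ± 0.31, edgeR adjusted p = 0.000303). Krt8, a keratin, measured 12.04, 12.7, 5.74 and 1.496 CPM in p27K high cells and 145, 76.7, 12.8 and 3.6998 CPM in p27K negative cells in D2A1, where tumours 1 and 2 held most of it, and its difference was -2.18 ± 0.31 (edgeR adjusted p = 0.000427). Without tumour 1 that difference was -1.57, and without the block it was not called (edgeR adjusted p = 0.0708). Pkia, an inhibitor of protein kinase A (-2.63 ± 0.80, edgeR adjusted p = 0.0422), and Zdhhc2, a palmitoyltransferase (-2.61 ± 0.58, edgeR adjusted p = 0.0109), had changes of 4.28 and 4.05 in EMT6. Against 4T07 alone they were not called (edgeR adjusted p = 0.281 and 0.58). The difference for Pkia was also not called against EMT6 alone (-4.88, edgeR adjusted p = 0.123), on scaling by total count (edgeR adjusted p = 0.0535), or without D2A1 tumour 1, 2 or 3 (edgeR adjusted p = 0.0718, 0.0661 and 0.053).

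Among the differences in the other direction, Espl1, separase, fell less in D2A1 than elsewhere. It changed by -2.62 in D2A1, -6.79 in 4T07 and -5.64 in EMT6, a difference of 3.60 ± 0.30 (edgeR adjusted p = 4.65e-06). Ccdc18, a centrosomal protein, changed by 0.10 in D2A1, -3.67 in 4T07 and -3.51 in EMT6 (3.69 ± 0.21, edgeR adjusted p = 4.74e-08). In D2A1 it measured 47.9, 78.998, 76.8 and 48.6 CPM in p27K high cells and 64.5, 75.7, 72.4 and 36.04 CPM in p27K negative cells, with no call. Sirpa, which receives the CD47 signal, changed by 1.00 in D2A1, -2.79 in 4T07 and -0.58 in EMT6 (2.68 ± 0.44, edgeR adjusted p = 0.00125). Pde1b, a phosphodiesterase, differed by 4.04 ± 0.93, the corepressor Cbfa2t3 by 3.91 ± 0.92, Ttc12 by 3.23 ± 0.28, Fam49a by 3.13 ± 0.50 and the lipoprotein receptor Vldlr by 3.03 ± 0.76. Against EMT6 alone Sirpa, Pde1b, Cbfa2t3, Ttc12, Fam49a and Vldlr were not called (edgeR adjusted p = 0.31, 0.248, 0.121, 0.112, 0.0744 and 0.67). Of the genes with the largest rises in D2A1, Cebpd (1.87 ± 0.17, edgeR adjusted p = 9.18e-06), Mgp (1.71 ± 0.32, edgeR adjusted p = 0.00289), Lcn2 (1.67 ± 0.32, edgeR adjusted p = 0.00349) and Hsd11b1 (1.49 ± 0.33, edgeR adjusted p = 0.00716) rose more than in the other lines. So did Slc6a2 (edgeR adjusted p = 0.0182), Plxdc1 (0.00552), Tnfrsf25 (0.0173) and Prelp (0.0255). The differences for Ace (1.20 ± 0.62, edgeR adjusted p = 0.197), Angptl7 (0.92 ± 0.35, edgeR adjusted p = 0.0817) and Ogn (-0.12 ± 0.27, edgeR adjusted p = 0.791) were not called. Genes picked by their rise in D2A1 lean toward a higher difference, so these values are a description. Aspn changed by 2.99 in D2A1, -1.48 in 4T07 and 3.11 in EMT6, and its difference was not called (edgeR adjusted p = 0.0529).

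By list, the mitotic falls were smaller in D2A1 for 22 of 64 genes and larger for 0 in edgeR's joint fit (2 at an unadjusted p under 0.05, Ect2 and Kif20b), with median changes of -4.60 in D2A1, -5.66 in 4T07 and -4.65 in EMT6. For replication genes these numbers were 19 and 0 of 56 (Mcm7 at an unadjusted p under 0.05). Genes of MYC and ribosome biogenesis had a lower change for 13 of 35, with medians of -0.56, -0.16 and -0.46 in the same order of lines. NF-kB targets had a higher change for 10 of 25 and a lower one for 1. Interferon-stimulated genes had a lower change for 10 of 35 and a higher one for 2. Chemokines had a higher change for 4 of 11. Over all 10444 genes the shares were the 8.77% and 6.81% given above.

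**Figure D5:**
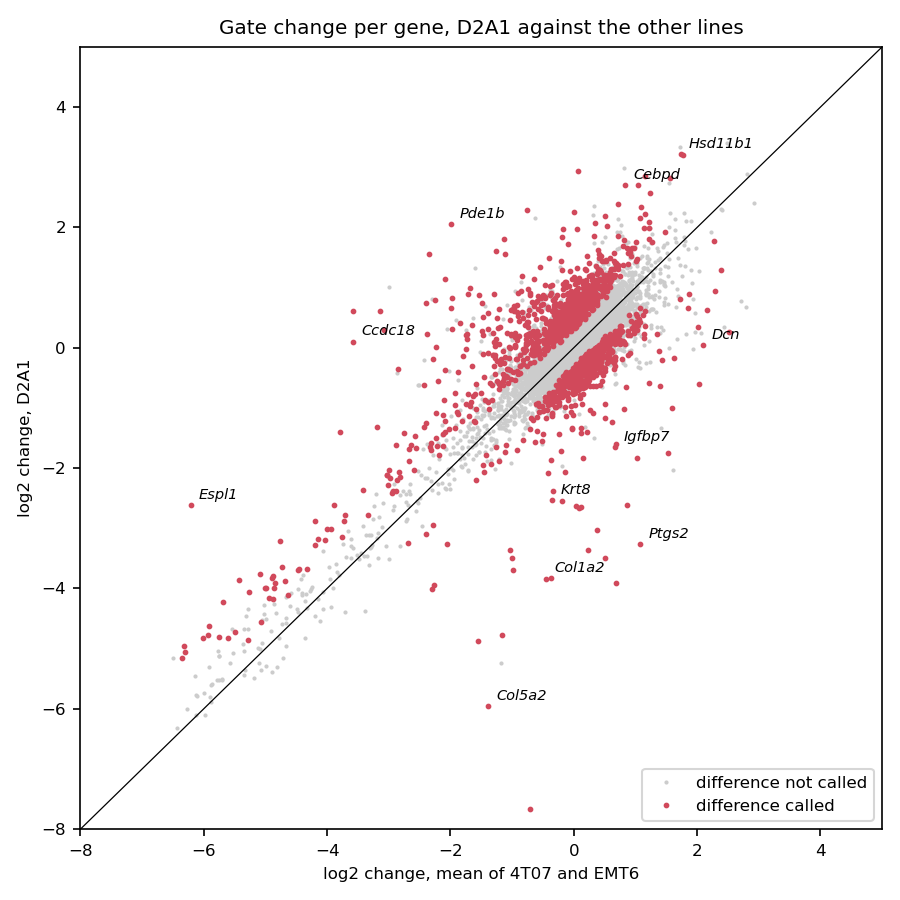
Log2 gate change of each of 10444 genes in D2A1 (vertical axis) against the mean of 4T07 and EMT6 (horizontal axis), with called differences in red and the diagonal for equal change. Col5a2, Col1a2 and Ptgs2 lie far below the diagonal and Espl1, Ccdc18 and Pde1b far above it.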

How the data were processed

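RNA of 8 D2A1 libraries was analysed, 4 per gate, with 16 libraries of the lines 4T07 and EMT6 for 1 comparison. The authors deposited whole-number gene counts, not normalized, in a table per line, made by GENEWIZ per the labels' protocols. The submitters' processing notes name mm10 and DESeq2. The sources used here do not state the aligner, the counter or the use of strand, so overlapping and antisense genes and near-identical copies may share or lose reads. The D2A1 table had 49316 entries. Its totals entry, 176 blank names (at most 0.0109% of a library's counts) and 4 entries with dates for names were left out, and repeated symbols were summed. No column belonged to another series.

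Groups were taken from the labels, which give both gates of a D2A1 tumour the same tumour number. Same-tumour libraries deviated together weakly, with r of 0.1098, 0.207, 0.084 and 0.292 for tumours 1 to 4 over 5000 genes. Each p27K high library matched the p27K negative library of its own tumour best, and the reverse was not checked. Each p-value rests on gate differences taken within tumours, with the estimate of their spread shared in part across genes. Genes passing filterByExpr with a mean CPM of at least 3.55 entered edgeR's quasi-likelihood test, with TMM factors, tumour blocks and Benjamini-Hochberg adjustment over all genes tested. Versions were R 4.3.3, edgeR 4.0.16 and limma 3.58.1. Standard errors were derived as |log2 change| divided by the root of F. The joint fit used the 24034 symbols in all 3 tables, and EMT6 libraries were paired by the numbers 0, 1, 2 and 4 in their column names. The 4T07 symbols, written in capitals, were matched where the capitals named 1 symbol only. On simulated data (5 simulations, 10786 genes, 200 of them changed) the D2A1 test recovered 42% of genes changed by 1.5-fold, 93.6% at 2-fold and all at 4-fold. Of the calls 5.9% were false. Far more genes were called in the real data, with larger falls than rises, so these rates need not hold there.

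Members and gene lists were chosen with earlier results of these data known. Genes were named by rule: Cdkn1b and Mki67, the 12 largest rises and 12 deepest falls among called genes of at least 10 CPM that moved 1 way in 4 tumours, the 8 lowest outside the cell cycle lists, 5 members per list by smallest p (all of lists under 10), and the 8 highest and 8 lowest differences from the other lines, without predicted genes. Chosen after their values were seen were Krt7, Cdh1, Cldn4, Pecam1, Cdh5, Ptprc, Thy1, Pdpn, Col1a1, Col3a1, Iigp1, Cd274, Csf3, Nos2, Fbn1, Krt18, Nlrc5, Myc, Lyz2, the other marker genes with values, and the few genes behind a count of 5 or less. Coordinates are from GENCODE vM21 (GRCm38) and promoter sequences from RefSeq (GRCm38.p6), counted from 1. Alternatives were DESeq2 1.42.0, other scaling and filters, thinning to equal depth, no block and leaving out each tumour. A few genes that the rule names are not reported here.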

Additional observations from a re-analysis of the deposited data

Results flagged for a closer look

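In 83 groups of 4 values checked for a value far from the others, 8 were found, while chance marks about 5% of such groups. Among the p27K negative libraries, tumour 4 stood apart with 15641189 counts. By tumour, the Cdkn1b log2 change was 0.66 in tumour 4, above the others, and the Ccna2 change was -6.50 in tumour 4, below them. In the marker sums, T and NK markers reached 1.396 CPM in p27K high cells of tumour 3, and adipocyte markers 1.385 CPM in p27K high cells of tumour 4. B and plasma cell markers reached 0.447 CPM in p27K negative cells of tumour 4. Endothelial markers reached 30.8 CPM in p27K negative cells of tumour 1, and pericyte and smooth muscle markers were lowest there, at 13.5 CPM.

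The genes given here were picked by the test of the difference itself. Below the other lines in their gate change were Col5a2 (-4.57), Ptgs2 (-4.33), Col1a2 (-3.39), Pkia (-2.63), Zdhhc2 (-2.61), Igfbp7 (-2.31), Krt8 (-2.18) and Dcn (-2.06). Above them were Pde1b (4.04), Cbfa2t3 (3.91), Ccdc18 (3.69), Espl1 (3.60), Ttc12 (3.23), Fam49a (3.13), Vldlr (3.03) and Sirpa (2.68).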

How the results depend on the processing

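Across the alternatives run for the D2A1 gate difference, no named gene turned its direction while called, and leaving out 1 tumour gave 2328 to 4888 called genes (1139 to 2375 higher, 1189 to 2513 lower). Without the tumour block 3488 genes were called, of which 3340 were shared with the paired test, and these genes named here lost their call: Ccnd1, Ptgs2, C3, Hsd17b7, Gbp7, Gbp3, Cxcl10, Oasl1, Erap1, H2-D1, Cx3cl1 and Prrx1. For the difference from the other lines, 602 genes were called without the replicate block, 3178 against 4T07 alone, 318 against EMT6 alone and 1072 to 1547 without 1 D2A1 tumour, against 1627. List medians moved by more than the spread between tumours as follows in settings that test other genes or fewer tumours, and the cause was not tested. With filterByExpr alone they were 0.191 for collagen processing, 0.318 for matrix proteases, 0.382 for complement and 0.163 for chemokines. With at least 20 expected counts they were 0.0433 for cyclin D and growth cyclins, where the median changed sign, 0.34 for collagen processing, 0.599 for matrix proteases, 0.199 for angiotensin and noradrenaline handling, 0.714 for angiogenic genes and 0.181 for EMT factors. After thinning they were -1.68 for G1/S genes and -0.292 for cyclins. Leaving out 1 tumour gave -0.278 to 0.0696 for cyclins, 0.175 to 0.303 for collagen processing, 0.17 to 0.355 for other matrix glycoproteins, 0.404 to 0.511 for matrix proteases, 0.382 to 0.465 for NF-kB targets, 0.895 to 1.06 for complement and -0.551 to -0.411 for serine supply. The 3 shallow p27K negative libraries limit low genes, and most blood, endothelial and epithelial markers could not be tested.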

Other observations

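Of 30 NRF2 antioxidant targets, 26 were tested, 4 were higher and 6 lower, shares near the 17.2% and 17% over all genes tested, with a median log2 change of -0.09, and the number lower was 2 without tumour 1, 3 without tumour 2, 11 without tumour 3 and 3 without tumour 4. Txnrd1, thioredoxin reductase, measured 135, 134, 101 and 103 CPM in p27K high cells and 266, 243, 240.0 and 197 CPM in p27K negative cells and changed by -1.002 ± 0.11 (edgeR adjusted p = 4.59e-05). Gclm, of glutathione synthesis, changed by -0.99 ± 0.14 (edgeR adjusted p = 0.000278). Hmox1, which breaks down heme, measured 177, 165, 140.4 and 74.3 CPM in p27K high cells and 56.3, 105, 45.7 and 34.8 CPM in p27K negative cells and rose by 1.22 ± 0.17 (edgeR adjusted p = 0.000212). Sod3, a secreted superoxide dismutase, rose by 1.02 ± 0.14 and Gstp1 by 0.63 ± 0.13, and the other higher gene was Gpx1 (0.47 ± 0.14). In cholesterol synthesis, 23 of 24 listed genes were tested. Hsd17b7 was higher (0.46 ± 0.15, edgeR adjusted p = 0.0317), but not without tumour 1 (edgeR adjusted p = 0.135) or tumour 4 (edgeR adjusted p = 0.2). Cyp51 (-0.22 ± 0.11) and Nsdhl (-0.28 ± 0.15) were not called.

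Of the epithelial genes, 3 chosen after their values were seen were highest in p27K negative cells of tumour 1. Krt7, a keratin of glandular epithelium, measured 7.02, 0.184, 0.155 and 0.0554 CPM in p27K high cells and 153, 0.47, 0 and 0.128 CPM in p27K negative cells. Cdh1, E-cadherin, measured 3.31, 0.0615, 0.31 and 0 CPM in p27K high cells and 81.8, 0, 1.67 and 0.0638 CPM in p27K negative cells. Cldn4, a tight junction claudin, measured 1.91, 0.123, 0 and 0 CPM in p27K high cells and 48.02, 0, 0.557 and 0 CPM in p27K negative cells. These 3 genes were too low elsewhere to be tested. Krt8 was lower in p27K high cells of each tumour (-2.47 ± 0.34, edgeR adjusted p = 0.000253), and by -1.86 without tumour 1 (edgeR adjusted p = 0.00351). Its partner Krt18 measured 95.5, 136, 197 and 91.8 CPM in p27K high cells and 214, 101, 77.9 and 58.2 CPM in p27K negative cells, with no call (edgeR adjusted p = 0.447). Without tumour 1 Krt18 was higher, by 0.79 (edgeR adjusted p = 0.017), although both keratins pair in the same filaments.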
